A study of Homo sapiens with 4 samples.

Results

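The mitotic genes described here are 49 genes of spindle, kinetochore, condensin and cytokinesis function, of 58735 genes listed in each library. They were taken by symbol from a written list of mitotic entry, kinetochore, kinesin, anaphase-promoting complex (APC/C), condensin and cytokinesis genes. The study profiled total RNA of HT8 cells, a cell line whose tissue is given as colon cancer, to compare knockdown of PPDPF, a factor named for pancreatic progenitor differentiation, with control cells. There were 2 libraries labelled PPDPF knockdown (source HT8-cas1) and 2 libraries labelled control (source HT8). All were of the same line with no treatment, time or other allele stated. The sources used here do not say how the knockdown was made, what cas1 stands for, or whether the cells were 1 clone. Separate cultures are not stated for the libraries of either group, and p-values here reflect the spread among these libraries alone, which may be technical.

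The values are FPKM, fragments per kilobase of exon scaled to library size, as the authors deposited them. Reads counted in genes numbered 17330674 and 17069628 in the libraries labelled knockdown, against 17348315 and 19479906 in the control libraries. Markers of T, B, myeloid, fibroblast and endothelial cells were at or near 0: 9 of 19 were at 0 in every library, CD3D, CD3E, CD2, PTPRC and MS4A1 among them. Their summed level was 1.55 and 1.16 FPKM in libraries labelled knockdown, against 1.65 and 1.34 FPKM in control libraries. The 7 colon epithelium markers summed to 2216 and 2185 FPKM with the knockdown label and to 1922 and 2061.5 FPKM in controls, most of it from the keratins KRT8 and KRT18. They did not move alike: by limma at an adjusted p under 0.05, KRT8, VIL1 and KRT20 were higher, CDH1 was lower and 3 were not called. KRT20, a keratin of differentiated colon epithelium, was at 2.61 and 2.94 FPKM with the knockdown label, against 0.339 and 0.717 FPKM in controls. Its fold was 2.49 (limma adjusted p = 0.00551). Folds between the groups are ratios of FPKM + 1 throughout, so for low genes such as KRT20 they are smaller than the ratio of the FPKM values. The part of these markers in the results on mitotic genes was not tested.

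PPDPF itself, the targeted gene, was at 280.5 and 282.8 FPKM in the libraries labelled knockdown, against 237 and 266 FPKM in the control libraries. Both values under the knockdown label lay above both controls. The log2 fold change, labelled knockdown over control on the log2(FPKM + 1) scale used throughout, was 0.16 (95% interval 0.01 to 0.31, limma adjusted p = 0.094), and it passed the threshold, as higher, under 4 of 14 alternative settings. PPDPF RNA was therefore not lower where the label says knockdown, and directions below refer to the libraries as labelled. Whether the labels of the groups were exchanged was not tested, and if they were, every direction given here would be the opposite.

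A cell enters mitosis when CDK1 bound to cyclin B is switched on, condensin then compacts the chromosomes, and kinesin motors build a bipolar spindle. Kinetochores tie chromosomes to spindle fibres, and the spindle checkpoint holds the APC/C, with its activator CDC20, in check until every chromosome is attached. The APC/C then has cyclin B and securin destroyed, separase frees the sister chromatids and the cell divides. In human cells many of these genes are transcribed late in the cell cycle, through promoters that bear a cell cycle genes homology region (CHR), recognised by MuvB complexes with B-MYB and FOXM1, and CCAAT boxes, recognised by NF-Y.

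Promoters from RefSeq (GRCh38.p14, 250 bases before to 50 after the gene start) were matched for 44 of the 49 genes, and UBE2C, FOXM1, BIRC5, TTK and TPX2 were not matched. Sequences are shown for the 5 matched genes that were lower with the smallest p, because they belong to the genes whose values are described first in their groups. They are CDC20 at chr1:43358731-43359030, CCNB1 at chr5:69166900-69167199, SMC4 at chr3:160399400-160399699, NCAPD2 at chr12:6493852-6494151 and HMMR at chr5:163460382-163460681. CKS2, at chr9:89310945-89311244, was added after its values were seen because it was the 1 gene that was higher. All 6 lie on the plus strand. Capitals mark the CHR, searched as TTTGAA or TTCGAA on both strands, and the CCAAT box, searched as CCAAT on both strands (ATTGG where it lies on the minus strand), with overlapping matches each counted.
CDC20: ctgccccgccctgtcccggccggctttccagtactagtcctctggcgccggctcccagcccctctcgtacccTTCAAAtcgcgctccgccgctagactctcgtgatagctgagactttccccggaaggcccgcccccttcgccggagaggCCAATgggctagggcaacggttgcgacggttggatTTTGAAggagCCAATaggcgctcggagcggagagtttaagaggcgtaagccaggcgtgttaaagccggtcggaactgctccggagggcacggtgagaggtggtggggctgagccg
CCNB1: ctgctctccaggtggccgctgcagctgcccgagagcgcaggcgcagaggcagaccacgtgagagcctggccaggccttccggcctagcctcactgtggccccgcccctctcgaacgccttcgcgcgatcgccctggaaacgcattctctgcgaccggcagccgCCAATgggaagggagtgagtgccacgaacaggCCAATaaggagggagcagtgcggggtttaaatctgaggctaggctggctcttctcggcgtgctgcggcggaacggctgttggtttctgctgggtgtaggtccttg
SMC4: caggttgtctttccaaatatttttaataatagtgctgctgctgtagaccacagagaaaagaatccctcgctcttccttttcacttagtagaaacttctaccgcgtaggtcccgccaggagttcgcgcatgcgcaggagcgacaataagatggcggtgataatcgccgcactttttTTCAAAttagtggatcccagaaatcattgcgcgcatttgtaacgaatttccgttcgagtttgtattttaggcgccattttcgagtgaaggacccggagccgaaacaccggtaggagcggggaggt
NCAPD2: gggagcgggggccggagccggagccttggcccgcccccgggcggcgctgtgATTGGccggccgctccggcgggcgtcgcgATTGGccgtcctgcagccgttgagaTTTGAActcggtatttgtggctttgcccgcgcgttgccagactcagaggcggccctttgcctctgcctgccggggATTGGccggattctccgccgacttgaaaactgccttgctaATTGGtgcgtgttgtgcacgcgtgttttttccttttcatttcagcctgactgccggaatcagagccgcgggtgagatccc
HMMR: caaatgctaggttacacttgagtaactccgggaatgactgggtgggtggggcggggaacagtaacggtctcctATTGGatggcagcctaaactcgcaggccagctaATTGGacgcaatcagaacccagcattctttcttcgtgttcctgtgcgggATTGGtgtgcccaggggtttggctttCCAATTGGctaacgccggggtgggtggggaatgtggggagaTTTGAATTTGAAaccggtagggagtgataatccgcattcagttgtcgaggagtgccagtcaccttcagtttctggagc
CKS2: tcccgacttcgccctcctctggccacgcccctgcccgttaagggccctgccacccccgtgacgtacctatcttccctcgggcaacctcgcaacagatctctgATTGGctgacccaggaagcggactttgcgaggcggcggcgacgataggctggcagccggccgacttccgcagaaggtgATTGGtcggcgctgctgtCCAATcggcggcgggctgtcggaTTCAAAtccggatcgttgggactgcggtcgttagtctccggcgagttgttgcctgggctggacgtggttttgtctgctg

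The 6 promoters differed in what they hold. CDC20 had 2 CHR matches and 2 CCAAT boxes, NCAPD2 had 1 and 4, HMMR had 2 and 5, and CKS2 had 1 and 3. CCNB1 had no CHR match and 2 CCAAT boxes, whereas SMC4 had 1 CHR match and no CCAAT box in its window. A CHR was found in 32 of the 44 matched promoters (72.7%), against 16.6% of all 27305 promoters and 10.8% of the 8889 promoters of genes tested here. A CCAAT box was also found in 32 of 44 (72.7%), against 35.7% of all promoters, and both motifs stood in 25 of 44 (56.8%), against 6.58% of all. Of the genes that were lower in libraries labelled knockdown (limma, adjusted p under 0.05), 14 of 18 matched promoters (77.8%) held a CHR, and of those not called 16 of 24 (66.7%) did. At least 2 CCAAT boxes were present in 11 of the 18 (61.1%) and in 9 of the 24 (37.5%), with 11.3% among all promoters. These are counts of letters, no difference between the 2 lists was tested, and a match is not a bound site. Other forms of the CHR were not searched, so a promoter without a match may still hold one.

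**Figure D1:**
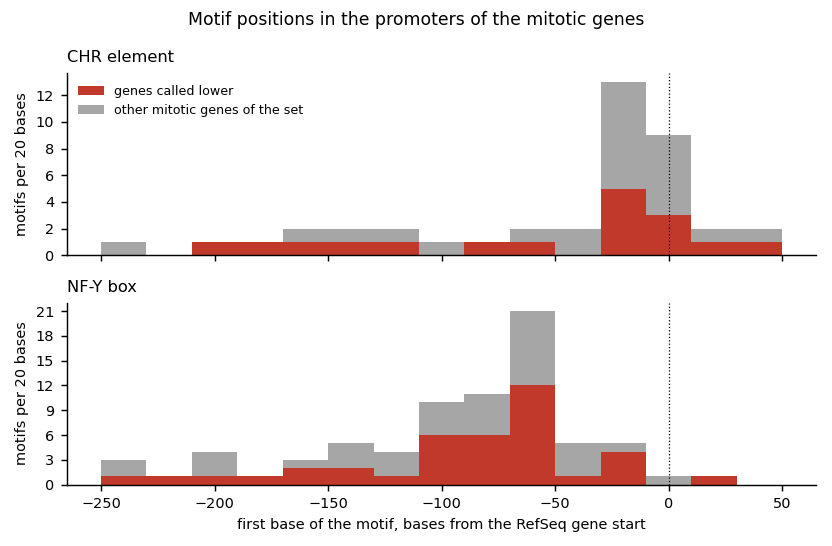
Position of each CHR element (upper panel) and NF-Y box (lower panel) in the matched promoters, in bases from the RefSeq gene start on the x axis and motifs per 20 bases on the y axis. Coloured bars are genes called lower in libraries labelled knockdown and grey bars are the other mitotic genes of the set. Of the 41 CHR elements, 28 lie within 50 bases of the start, and 42 of the 75 NF-Y boxes start between -110 and -50.

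Many of these motifs lay close to the gene start. A CHR within 50 bases of the gene start was present in 25 of 44 promoters (56.8%), against 5.05% of all promoters. A CCAAT box starting between -110 and -50 from the gene start was present in 25 of 44 (56.8%), against 15.1% of all promoters. That second window was chosen after the positions were seen. CCNA2, CCNB1, CDC25B, CDC25C, MYBL2, AURKB, SPC24, CENPE, KIF2C, KIF20A, PTTG1 and NCAPH had no match to TTTGAA or TTCGAA in the window searched. That does not show that these genes lack a CHR.

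Many of the mitotic genes were slightly lower in the libraries labelled knockdown. As ratios of FPKM + 1, the folds of CDC20, CCNB1, SMC4 and HMMR were under 0.8. Of the 49 genes, 48 passed the filter of a mean of 1 FPKM and were tested, PRC1 being the exception. By limma with an adjusted p under 0.05, 22 of 48 (45.8%) were lower, with 13.0% lower among all 12777 genes tested, and 1 (CKS2, 2.08%) was higher, with 16.8% higher among all genes. In either direction 23 of 48 were called, with 29.9% among all genes. The other 25 did not pass the test. With the filter raised to a mean of 5 FPKM, 24 of 46 members (52.2%) were lower, with 18.9% lower among all 7876 genes tested. The median log2 fold change of the 48 genes was -0.16 and their range -0.41 to 0.12, beside a median of 0.0011 over all tested genes. Both libraries labelled knockdown lay below both controls for 34 of 48 genes (70.8%), against 33.8% of all tested genes, and 1 gene lay above both, against 35.9%. Because these are bulk libraries, fewer cells in mitosis and less of each RNA per cell cannot be told apart. Mitochondrial genes took 2.35% and 2.19% of the reads in libraries labelled knockdown, against 2.87% and 2.76% in controls. With values scaled to the other reads 24 of 48 mitotic genes were lower, with 15.9% lower among all 12777 genes tested.

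The changes were small in size. Folds of the 22 lower genes ran between 0.754 and 0.904 with adjusted p from 0.00191 to 0.0476, and the size of the log2 change had a median of 0.23 over the 23 called members, beside 0.34 over all called genes. The tested genes had mean levels of 3.85 to 90.8 FPKM and 246 to 9528 reads a library, with medians of 19.0 FPKM for the 22 lower genes and 15.3 FPKM for the 25 not called. The median log2 fold change of the nearest tested genes on the chromosome, 15 on each side or as many as there were, lay between -0.13 and 0.09 for every tested member. KIF11 was the 1 member whose neighbours had a median beyond 0.1 in size. The calls depend on the few libraries: with any 1 of the 4 left out, fewer members were called lower, and so were fewer of all tested genes. In those 4 fits the members' median log2 fold change lay between -0.176 and -0.144, beside 0.003 to 0.005 over all tested genes. CDC20, CCNB1, UBE2C and SMC4 were called in each of these and under all 14 alternatives, whereas each of the other 18 lost its call in at least 1 of the 4.

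**Figure D2:**
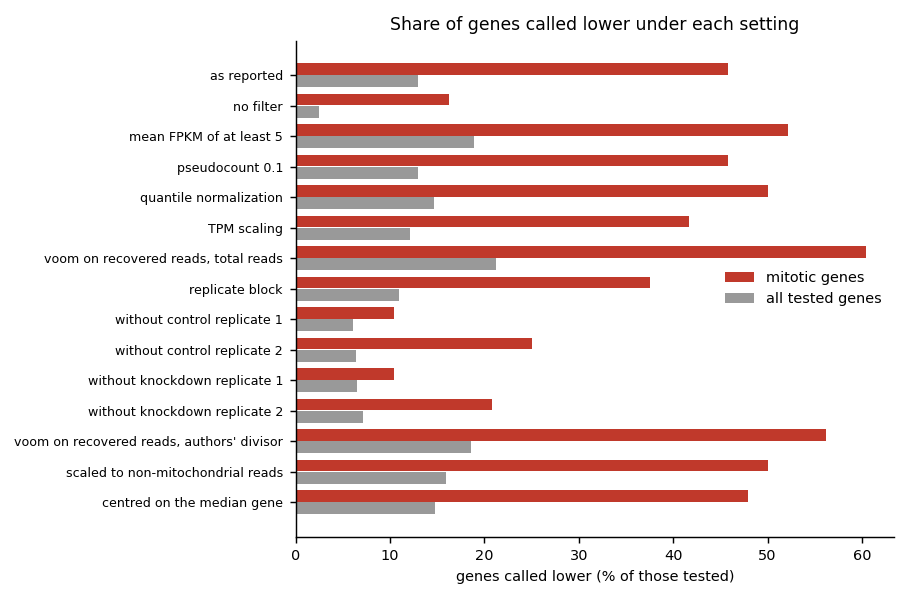
Share of genes called lower in libraries labelled knockdown, in percent of those tested, on the x axis for each analysis setting on the y axis, with mitotic genes as coloured bars and all tested genes as grey bars. The mitotic share is 45.8% in the analysis as reported, against 13.0% of all genes, and 10.4% without control replicate 1, against 6.07%.

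**Figure D3:**
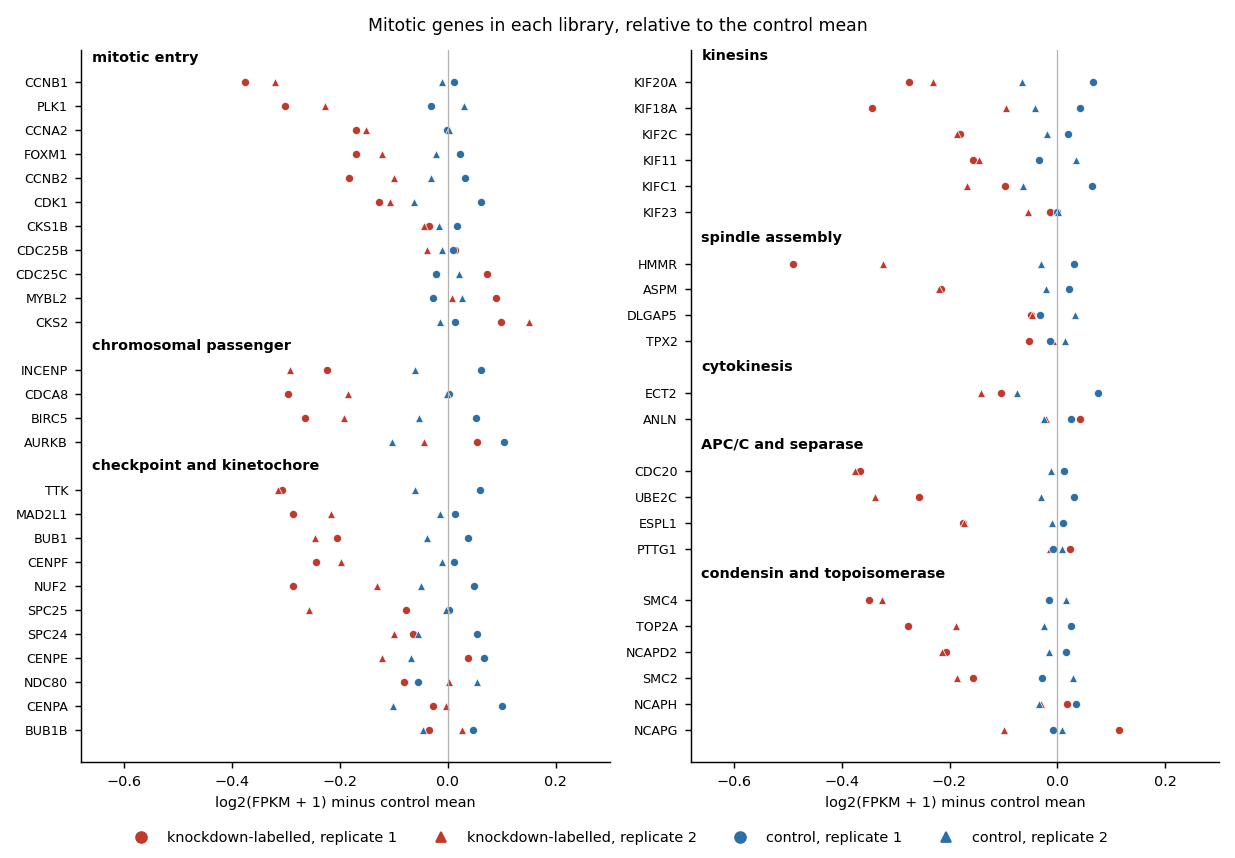
Level of each tested mitotic gene in each library, as log2(FPKM + 1) minus the control mean, grouped by role. Circles and triangles are replicates 1 and 2, with libraries labelled knockdown and control in separate colours, and the zero line is the control mean. For 34 of 48 genes both points labelled knockdown lie left of both controls.

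**Figure D4:**
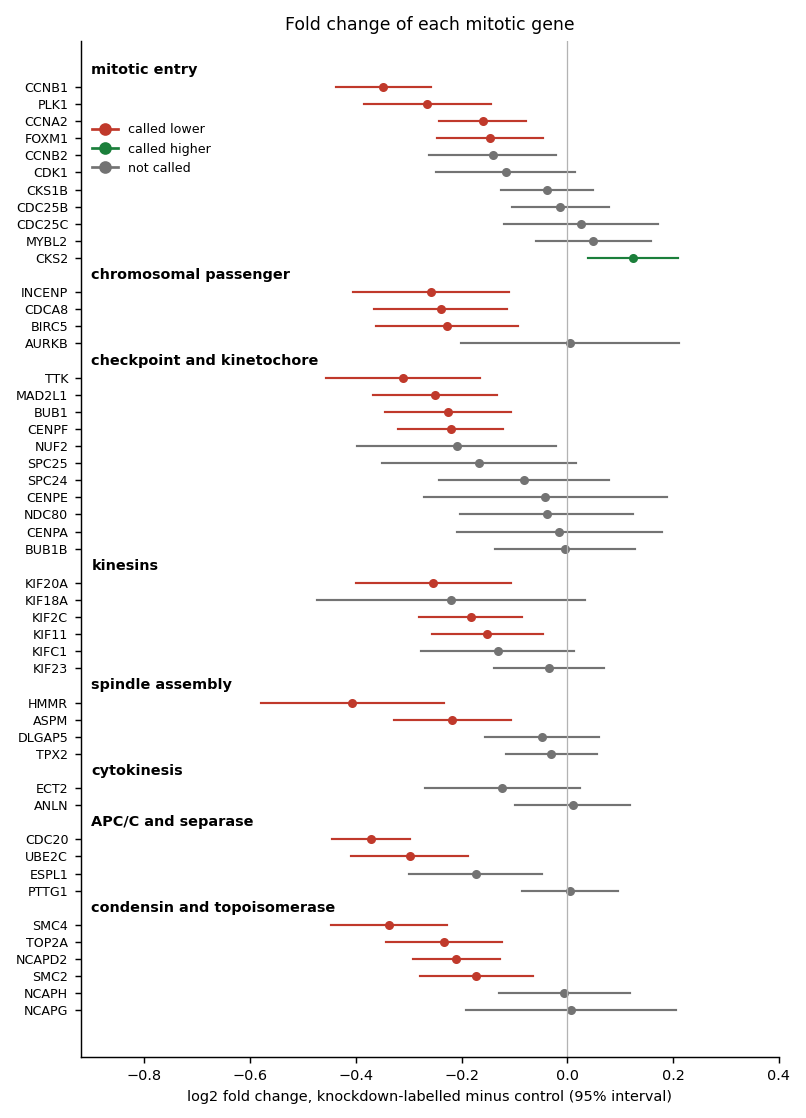
Log2 fold change of each tested mitotic gene, libraries labelled knockdown minus control, with its 95% interval from limma, grouped by role. Colours mark genes called lower, called higher and not called. HMMR has the lowest fold change, -0.41, and CKS2, at 0.12, is the 1 gene called higher.

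Among the 11 genes of mitotic entry, 4 (36.4%) were lower and 1 (9.09%) was higher, beside 13.0% and 16.8% of all tested genes. The other 6 did not pass the test (median log2 fold change of the 11 -0.12). CCNB1 encodes cyclin B1, the partner that switches on CDK1. It was at 41.0 and 42.7 FPKM with the knockdown label, against 54.0 and 53.1 FPKM in controls. The groups were far apart for their spread, with a fold of 0.786 (95% interval of the log2 fold change -0.44 to -0.26, limma adjusted p = 0.00346). PLK1 encodes polo-like kinase 1, which acts from centrosome maturation to cytokinesis. Its levels were 15.9 and 16.8 FPKM in libraries labelled knockdown and 19.4 and 20.3 FPKM in controls, without overlap. The fold was 0.832 (log2 interval -0.38 to -0.14, limma adjusted p = 0.0152). CCNA2 encodes cyclin A2, which acts in S phase and before cyclin B at entry. It had 31.1 and 31.5 FPKM under the knockdown label, against 35.0 and 35.1 FPKM in controls. Its groups did not overlap either, at a fold of 0.895 (log2 interval -0.24 to -0.08, limma adjusted p = 0.0216). The fourth lower gene was FOXM1, a transcription factor of late cell cycle genes, at a fold of 0.904 (limma adjusted p = 0.0468).

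Of the remaining entry genes 1 was higher and 6 were not called. CKS2, a small CDK-binding subunit, was at 88.9 and 92.2 FPKM with the knockdown label and at 83.8 and 82.2 FPKM in controls. Both values labelled knockdown were higher, by a fold of 1.09 (log2 interval 0.04 to 0.21, limma adjusted p = 0.0454), and this call was lost in 10 of the 14 alternatives. Its paralogue CKS1B was not called, at a fold of 0.973. CDK1, the kinase itself, had 27.9 and 28.3 FPKM under the knockdown label and 31.9 and 29.2 FPKM in controls. Both knockdown-labelled values were below the controls, but the difference missed the threshold (log2 interval -0.25 to 0.01, limma adjusted p = 0.15). CCNB2, cyclin B2, gave a fold of 0.907 that also missed the threshold (limma adjusted p = 0.0787). The phosphatases CDC25B and CDC25C, which activate CDK1, had folds of 0.991 and 1.02, and MYBL2, which encodes B-MYB, had a fold of 1.03. Their 95% intervals on the log2 scale lay within -0.12 to 0.17.

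The chromosomal passenger complex corrects faulty attachments and guides cytokinesis, and 3 of its 4 subunits were lower, with 13.0% lower among all tested genes. CDCA8, borealin, was at 19.7 and 21.4 FPKM with the knockdown label and at 24.5 and 24.4 FPKM in controls, a fold of 0.847 (limma adjusted p = 0.0227). INCENP, the scaffold, was at 15.3 and 14.6 FPKM under the knockdown label, against 18.9 and 17.3 FPKM in controls, a fold of 0.837 (limma adjusted p = 0.0287). BIRC5, survivin, was at 23.4 and 24.7 FPKM in libraries labelled knockdown, against 29.4 and 27.3 FPKM in controls, a fold of 0.854 (limma adjusted p = 0.0309). In none of the 3 did the groups overlap. AURKB, the kinase of the complex, had 23.6 and 21.97 FPKM under the knockdown label and 24.5 and 21.0 FPKM in controls. Here the 2 controls enclosed both knockdown-labelled libraries, with a fold of 1.00 and a log2 interval of -0.20 to 0.21 (limma adjusted p = 0.968).

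Among the 11 checkpoint and kinetochore genes, 4 (36.4%) were lower, with 13.0% lower among all tested genes. The other 7 did not pass the test (median log2 fold change of the 11 -0.17). CENPF, a large protein of the outer kinetochore and its corona, was at 18.0 and 18.6 FPKM with the knockdown label, against 21.7 and 21.3 FPKM in controls. The difference exceeded the spread within groups, at a fold of 0.858 (limma adjusted p = 0.0148). MAD2L1, the checkpoint protein that binds CDC20, was at 11.6 and 12.3 FPKM under the knockdown label, against 14.6 and 14.3 FPKM in controls, a fold of 0.84 (limma adjusted p = 0.0163). TTK, the checkpoint kinase MPS1, was at 8.41 and 8.37 FPKM in libraries labelled knockdown, against 11.2 and 10.2 FPKM in controls, a fold of 0.806 (limma adjusted p = 0.0166). Both genes were lower in each library labelled knockdown than in either control. BUB1, a checkpoint kinase of the kinetochore, was the fourth, at a fold of 0.855 (limma adjusted p = 0.0231). Its relative BUB1B, which encodes BUBR1, was not called: it was at 14.0 and 14.6 FPKM with the knockdown label and 14.9 and 13.9 FPKM in controls, with a log2 interval of -0.14 to 0.13.

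The NDC80 complex forms the rod that grips microtubules, and none of its 4 subunits passed the test. Their folds were 0.973 for NDC80, 0.865 for NUF2, 0.945 for SPC24 and 0.891 for SPC25, with limma adjusted p from 0.0903 to 0.675. For NUF2 the 95% interval of the log2 fold change was -0.40 to -0.02 before adjustment over all genes, which takes in the value of CDC20, -0.37. In level the 4 subunits were within 1.61-fold of each other, at means of 5.60 to 9.04 FPKM. CENPA, the centromeric histone, had a fold of 0.99, and CENPE, a kinetochore motor, had a fold of 0.972. Neither passed the test.

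All 6 kinesins had both knockdown-labelled libraries below both controls, as did 33.8% of all tested genes. Of the 6, 3 were called lower, with 13.0% lower among all tested genes (median log2 fold change of the 6 -0.17). KIF2C, which takes microtubules apart at centromeres, was at 16.9 and 16.8 FPKM under the knockdown label, against 19.5 and 19.0 FPKM in controls, a fold of 0.881 (limma adjusted p = 0.0238). KIF20A, a motor of the central spindle, was at 13.7 and 14.2 FPKM with the knockdown label, against 17.6 and 16.0 FPKM in controls, a fold of 0.839 (limma adjusted p = 0.0296). KIF11, the motor that pushes spindle poles apart, was at 19.2 and 19.4 FPKM in libraries labelled knockdown, against 21.0 and 22.1 FPKM in controls, a fold of 0.9 (limma adjusted p = 0.0476). KIF11 passed narrowly, and its chromosomal neighbours had a median log2 fold change of -0.13, whose part in the result was not tested. KIF18A, which damps chromosome movement, had a fold of 0.859, KIFC1, a minus-end motor, 0.913, and KIF23, a subunit of centralspindlin, 0.976. None of those 3 reached the threshold (limma adjusted p 0.143 to 0.561).

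Of the 4 spindle assembly factors, 2 were lower, with 13.0% lower among all tested genes. HMMR, a microtubule-binding protein at spindle poles, was at 11.2 and 12.7 FPKM with the knockdown label, against 16.5 and 15.8 FPKM in controls. It had the largest fall of the set, to a fold of 0.754 (log2 interval -0.58 to -0.23, limma adjusted p = 0.0128). ASPM, another pole protein, was at 9.99 and 9.96 FPKM under the knockdown label, against 11.96 and 11.6 FPKM in controls, a fold of 0.86 (limma adjusted p = 0.0208). DLGAP5, which bundles spindle fibres, was at 15.5 and 15.5 FPKM with the knockdown label and 15.7 and 16.4 FPKM in controls, and was not called (fold 0.967, limma adjusted p = 0.433). TPX2, which activates Aurora A and nucleates microtubules, had a fold of 0.979 and a log2 interval of -0.12 to 0.06.

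The APC/C arm held CDC20, the gene with the smallest p of the set. In this arm 2 of 4 genes were lower, with 13.0% lower among all tested genes. CDC20, the activator of the APC/C, was at 79.3 and 78.8 FPKM in libraries labelled knockdown, against 103 and 102 FPKM in controls. The groups were far apart for the spread within them, at a fold of 0.773 (log2 interval -0.44 to -0.30, limma adjusted p = 0.00191). UBE2C, the ubiquitin-conjugating enzyme that works with the APC/C, was at 54.5 and 51.5 FPKM with the knockdown label, against 66.7 and 64.0 FPKM in controls, a fold of 0.813 (limma adjusted p = 0.00866). ESPL1, separase, was at 5.96 and 5.96 FPKM under the knockdown label, against 6.91 and 6.79 FPKM in controls. Its groups did not overlap, but at a fold of 0.887 it fell just short of the threshold (limma adjusted p = 0.0524). PTTG1, securin, the inhibitor of separase, was at 26.3 and 25.6 FPKM with the knockdown label and at 25.7 and 26.0 FPKM in controls. Its libraries overlapped completely, with a log2 interval of -0.09 to 0.10 (limma adjusted p = 0.927).

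In the condensin and topoisomerase group, 4 of 6 genes (66.7%) were lower, with 13.0% lower among all tested genes. SMC4, an ATPase subunit of condensin, was at 9.62 and 9.79 FPKM with the knockdown label, against 12.4 and 12.7 FPKM in controls, a fold of 0.792 (log2 interval -0.45 to -0.23, limma adjusted p = 0.00591). SMC4 shares 18.5% of its exonic bases with TRIM59, which was at 1.95 and 2.32 FPKM under the knockdown label and 2.02 and 2.39 FPKM in controls. NCAPD2, a condensin I subunit, was at 38.5 and 38.3 FPKM in libraries labelled knockdown, against 45.02 and 44.0 FPKM in controls, a fold of 0.865 (limma adjusted p = 0.0101). Both subunits were separated cleanly between the groups. TOP2A, topoisomerase II alpha, which untangles sister DNA, was at 63.1 and 67.1 FPKM with the knockdown label, against 78.0 and 75.3 FPKM in controls, a fold of 0.851 (limma adjusted p = 0.0166). SMC2, the other ATPase subunit, had a fold of 0.888 (limma adjusted p = 0.036).

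The other 2 subunits of condensin I were not called. NCAPG was at 16.6 and 14.2 FPKM under the knockdown label and 15.2 and 15.4 FPKM in controls, and NCAPH was at 10.98 and 10.6 FPKM with the knockdown label and 11.1 and 10.6 FPKM in controls. Their groups overlapped (limma adjusted p 0.953 for NCAPG and 0.937 for NCAPH), and NCAPG shares 33.1% of its exonic bases with LCORL. The 5 subunits of condensin I spanned a 3.84-fold range of mean level, with NCAPD2 the highest at 41.4 FPKM and NCAPH the lowest at 10.8 FPKM.

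Cytokinesis was the group with no called gene. ECT2, which activates RHOA at the equator, was at 46.3 and 45.1 FPKM with the knockdown label, against 52.5 and 47.3 FPKM in controls. The controls differed from each other by more than the nearest pair across groups, and the fold of 0.918 was not called (limma adjusted p = 0.167). ANLN, anillin, a scaffold of the contractile ring, was at 24.1 and 23.1 FPKM under the knockdown label and 23.8 and 23.0 FPKM in controls (limma adjusted p = 0.875). PRC1, which bundles the central spindle, was listed at 0.315 and 0.171 FPKM with the knockdown label and 0.35 and 0.249 FPKM in controls, from 16 to 34 reads a library. It was not tested, and 57.6% of its exonic bases are shared with AC068831.7, a gene on the same strand.

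Some further members share exonic bases with another gene, and no source used here states whether counting used strand. The shares above 10% were 15.9% for FOXM1, 11.6% for PLK1, 10.2% for BUB1B and 12.7% for KIFC1, beside the 3 named above. Values of these 7 genes are therefore uncertain to that extent.

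The rest of the mitotic machinery was examined with lists of 144 further genes, of which 140 were tested. Of these, 27 (19.3%) were lower, with 13.0% among all tested genes, 14 of 140 were higher, with 16.8% among all, and 99 did not pass the test (median log2 fold change -0.08). Among 17 entry regulators 5 (29.4%) were lower and 2 (11.8%) higher, the higher share below the 16.8% of all tested genes. CDC25A, a CDK-activating phosphatase, was lower at 10.8 and 10.3 FPKM with the knockdown label, against 13.5 and 13.3 FPKM in controls (fold 0.801, limma adjusted p = 0.00818). ARPP19, an inhibitor of the phosphatase PP2A, was higher at 45.7 and 46.7 FPKM with the knockdown label, against 35.5 and 36.6 FPKM in controls (fold 1.27, limma adjusted p = 0.00334). Among 35 kinetochore and checkpoint genes 5 (14.3%) were lower, a share near the 13.0% of all tested genes, and 1 was higher. Of these, NSL1, of the MIS12 complex, had the fold 0.786 and BOD1, which aids chromosome alignment, the fold 0.866 (limma adjusted p = 0.0104 and 0.0129). Among 25 other kinesins and spindle genes 6 (24.0%) were lower and 2 (8.0%) higher, the higher share below the 16.8% of all tested genes. Of the 6, KIF18B had a fold of 0.857 and RCC1, which charges the RAN GTPase, 0.876. NSL1, BOD1, KIF18B and RCC1 lost their calls when some single libraries were left out.

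The other lists held genes that were higher as well as genes that were lower, the centrosome list excepted. Among 19 APC/C subunits and exit genes 1 (5.26%) was lower and 2 (10.5%) were higher, neither share above that of all tested genes: CDC16, a core subunit, had a fold of 1.19 (limma adjusted p = 0.00812) and CDC14B, a phosphatase, a fold of 1.33 (limma adjusted p = 0.0117), a call lost when some single libraries were left out. Among 20 cohesin and condensin II genes 5 were lower, a share above the 13.0% of all tested genes. Another 3 were higher, a share below the 16.8% of all tested genes. The 2 genes of this list with the smallest p, NIPBL and NCAPG2, were both among the higher ones. NIPBL, which loads cohesin, was at 8.6 and 7.95 FPKM with the knockdown label, against 4.97 and 4.99 FPKM in controls (fold 1.55, limma adjusted p = 0.0027). NCAPG2, a condensin II subunit, was at 24.6 and 25.8 FPKM with the knockdown label, against 20.2 and 20.7 FPKM in controls (fold 1.22, limma adjusted p = 0.00875), and the nearest tested genes to it had a median log2 fold change of 0.15, whose part in the result was not tested. Both genes were above the controls in each library labelled knockdown. Among 13 further cytokinesis genes 4 (30.8%) were higher, with 16.8% higher among all tested genes. Another 2 (15.4%) were lower, a share near the 13.0% of all tested genes. RHOA, the GTPase that drives ring contraction, was at 387 and 389 FPKM with the knockdown label, against 304 and 307 FPKM in controls (fold 1.27, limma adjusted p = 0.00189). CHMP4B, an ESCRT subunit of abscission, had a fold of 1.28 (limma adjusted p = 0.00373). Among 11 centrosome genes 3 (27.3%) were lower, with 13.0% lower among all tested genes, and none was higher. PLK4, the kinase of centriole duplication, had a fold of 0.858 and SASS6, of the centriole cartwheel, 0.827 (limma adjusted p = 0.0351 and 0.0251). Both calls were lost when any 1 library was left out.

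**Figure D5:**
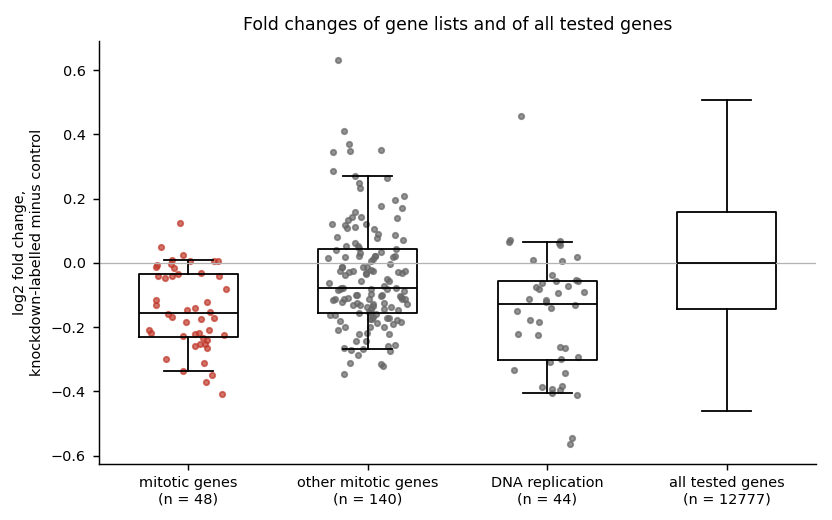
Log2 fold changes, libraries labelled knockdown minus control, on the y axis for the mitotic genes, the further mitotic lists, the DNA replication and G1/S genes and all tested genes on the x axis. The medians are -0.16 for the mitotic genes, -0.08 for the further mitotic genes and -0.13 for the replication genes, with all tested genes near 0.

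DNA replication and G1/S genes, set beside the mitotic genes because they act earlier in the same cycle, were lower in part. Of 44 tested, 17 (38.6%) were lower, with 13.0% lower among all tested genes, 1 was higher, with 16.8% among all, and 26 were not called (median log2 fold change -0.13). Their log2 fold changes ranged from -0.56 to 0.46, beside -0.41 to 0.12 for the mitotic genes. The difference between the 2 lists was not tested, and nothing was shown to be particular to the mitotic genes.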

How the data were processed

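Total RNA was profiled by sequencing in 4 libraries, 2 labelled knockdown and 2 control. The authors deposited 1 FPKM table per library, with HISAT2 2.0.5 and the build hg18 named in the submitters' processing notes. No source used here names the counting tool, its use of strand or the annotation. All 58735 Ensembl IDs matched GENCODE 29, whose GRCh38 positions were used for names, exon lengths and neighbours. FPKM times exon length gave whole reads (tolerance 0.01) for 100% of the values checked, which yielded the reads per gene.

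The tests used limma 3.58.1 (R 4.3.3), with a mean-variance trend, on log2(FPKM + 1) for the 12777 genes with a mean of at least 1 FPKM, two-sided, with 2 residual degrees of freedom. Genes with a Benjamini-Hochberg adjusted p under 0.05 over all 12777 were called. The fit was also run on simulated data with set fold changes, and no result given here rests on that run. A log2(FPKM + 1) fold change understates the change of low genes.

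The 3 tested members with the smallest p per role group, every member called higher and every member with an absolute log2 fold change of at least 0.3 are given in each library. From each pathway list the 2 members with the smallest p are named. Members and lists were chosen with earlier results of these data known. One cell type marker is not reported here. Replicate numbers gave no sign of pairing in the values (correlation of same-numbered deviations -0.00206 over 12777 genes), which cannot show how the libraries were prepared. Libraries of a group differed by more than counting noise (chi-square per gene 2.38 with the knockdown label and 2.51 in controls). Filters, pseudocount, scaling, a count model, a replicate block and leaving out each library were tried as alternatives.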

Additional observations from a re-analysis of the deposited data

How the results depend on the processing

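All 22 genes called lower kept a negative log2 fold change under all 14 alternatives, and CDC20, CCNB1, UBE2C and SMC4 kept their calls in each. For these 22 genes both libraries labelled knockdown lay below both controls. Leaving out a library, changing the filter or the pseudocount, or adding the replicate block therefore could not turn their sign. Under the other alternatives the sign was free to change. Over all alternatives the members' median log2 fold change lay between -0.188 and -0.144, and that of all tested genes between -0.026 and 0.015. Without a filter on low values, 8 members were lower and 0 higher, with 734 lower and 1134 higher among all genes. By role, that left 2 lower genes of mitotic entry, 0 of the chromosomal passenger complex, 1 of checkpoint and kinetochore, 1 kinesin, 0 of spindle assembly and 2 of condensin and topoisomerase, and 5 lower and 7 higher further mitotic genes. That setting adds low genes both to the adjustment and to the mean-variance trend, and the part of each in the smaller counts was not tested. Leaving out 1 library gave 5 to 12 members lower and 0 higher, with 775 to 919 genes lower and 1141 to 1345 higher in all. There the lone library left in an arm is assumed to vary like the others. By role, these ranges were 1 to 2 for mitotic entry, 0 to 2 for the passenger complex, 0 to 2 for checkpoint and kinetochore, 0 to 1 for kinesins, 0 to 1 for spindle assembly and 1 to 3 for condensin and topoisomerase. The further mitotic genes gave 3 to 6 lower and 6 to 10 higher. The limma voom fit on recovered reads per total reads called 29 members lower, 2709 genes lower and 2502 higher, 5 kinesins, 1 cytokinesis gene and 44 further mitotic genes lower. With the authors' divisor it called 27 members lower, with 2373 genes lower and 2790 higher, and 1 cytokinesis gene. Quantile normalization gave 24 members lower, with 1883 genes lower and 1948 higher, and scaling to non-mitochondrial reads gave 24 lower, with 2034 genes lower and 1881 higher. Members called higher numbered 0 under both voom fits, the replicate block, the non-mitochondrial scaling and centring on the median gene. Voom with the authors' divisor, the non-mitochondrial scaling and the centring were chosen after the data were seen. Each cause was not tested.

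With the replicate number as a block (replicate block), 18 members were lower and 0 higher, with 1405 genes lower and 1899 higher in all. The correlation of same-numbered deviations was 0.0181 over the 48 members, so the numbers give no sign of pairing.

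Sign changes occurred only in members that were not called and lay near 0. Under quantile normalization, voom per total reads, non-mitochondrial scaling and centring, in that order, the log2 fold change became -0.0254, -0.0119, -0.0204 and -0.0083 for ANLN, -0.034, -0.0129, -0.0257 and -0.0136 for AURKB, -0.0116, -0.016, -0.0228 and -0.0114 for NCAPG, and -0.0325, -0.0188, -0.0258 and -0.0135 for PTTG1. With TPM scaling it was 0.0044 for BUB1B and 0.003 for NCAPH. It was -0.0026 for CDC25C with non-mitochondrial scaling and -0.0042 for MYBL2 with quantile normalization. Leaving out 1 library, the range was -0.0216 to 0.0423 for ANLN, -0.0988 to 0.109 for AURKB, -0.0511 to 0.0414 for BUB1B, -0.0393 to 0.0133 for CDC25B and -0.0222 to 0.0735 for CDC25C. It was -0.1159 to 0.0857 for CENPA, -0.1212 to 0.0382 for CENPE, -0.1 to 0.1146 for NCAPG, -0.0394 to 0.0274 for NCAPH, -0.0942 to 0.0159 for NDC80 and -0.0137 to 0.024 for PTTG1.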

Other observations

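Ratios between partners, on the FPKM scale, are given as values with no test. The pairs were chosen after the values were seen, each with a gene called lower over a gene not called, so the direction of each ratio follows from that choice. The ratio of CDC20 to PTTG1, which the APC/C with CDC20 marks for destruction, was 3.02 and 3.08 in libraries labelled knockdown, against 4.03 and 3.91 in control libraries. The ratio of SMC4 to NCAPG was 0.579 and 0.69 with the knockdown label, against 0.814 and 0.825 in controls. The ratio of INCENP to AURKB was 0.65 and 0.664 with the knockdown label, against 0.773 and 0.821 in controls.

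CKS1BP3, a processed pseudogene of CKS1B on chromosome 5, was at 7.58 and 6.47 FPKM in libraries labelled knockdown, against 3.84 and 4.51 FPKM in control libraries (fold 1.55, limma adjusted p = 0.0113). These values rest on 31 and 26 reads with the knockdown label and 16 and 21 reads in controls, and no source used here states how reads were divided between CKS1B and its copies. AC068831.7, which shares exonic bases with PRC1, was at 0.73 and 0.66 FPKM with the knockdown label and at 0.827 and 0.868 FPKM in controls.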
